A study of Mus musculus with 10 samples.

Results

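The feedback genes of cytokine signalling through Janus kinases (JAKs) were followed in 3 kinds of allergic effector cell. The 10 genes were chosen by name, with earlier results of these data known. They are Cish, Socs1, Socs2 and Socs3, which encode inhibitors of cytokine signalling, Pim1 and Pim2, which encode survival kinases, the transcription factor genes Stat3, Stat5a and Stat6, and the kinase gene Jak2. Each was represented by its probe set with the highest mean signal, and all 10 were measured among the 19937 genes named on the array. The values are log2 signals from Affymetrix Mouse Gene 1.0 ST arrays, so that a difference of 1 is a doubling. The 10 arrays held cells grown from bone marrow (BM) of mice labelled C57BL6/N, either lacking Slpi (Slpi-/-) or wild type (B6), and every condition had 1 array. Slpi encodes a secreted inhibitor of leukocyte proteases. The conditions were BM-derived eosinophils (BMEos) with lipopolysaccharide (LPS, 1 µg/ml for 3 h), BMEos without LPS, BM-derived basophils (BMBs) with IgE and antigen (1 h with anti-TNP-IgE, followed by 12 h with TNP-OVA), BMBs without stimulation, and unstimulated mast cells, each from Slpi-/- and B6 marrow. BMBs and mast cells were grown in IL-3, mast cells for weeks longer, and BMBs were then isolated as c-kit- DX5+ cells. BMEos were grown in stem cell factor and Flt3 ligand and then in IL-5. Cytokines and culture times thus differ together with cell type. The sources used here do not give the ages of the mice, or how many mice or cultures went into an array. The arrays of the genotypes therefore serve as the replicates of a stimulus or cell type, and p-values measure only the spread between these arrays.

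When IL-3 or IL-5 binds its receptor, JAK2 on the shared beta chain phosphorylates STAT5, which enters the nucleus and switches on genes that include Cish, Socs1, Socs2, Socs3, Pim1 and Pim2. CISH and the SOCS proteins then bind the receptor or the kinase and damp the signal, whereas the PIM kinases favour survival and growth. STAT6 acts downstream of IL-4 and IL-13, and STAT3 acts downstream of the IL-6 family and IL-10.

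Slpi had log2 signals of 5.93 to 6.55 on the 5 Slpi-/- arrays, against 7.96 to 11.42 on the B6 arrays of BMEos and BMBs, and 6.53 in B6 mast cells. The cell labels were borne out by most, but not all, listed markers. Prg2 was at 12.02 to 12.35 in BMEos, Mcpt8 at 12.72 to 13.29 in BMBs, and Cma1 at 11.99 and 12.19 in mast cells. Of the mast cell markers, Cpa3 was also at 12.72 to 12.94 and Tpsb2 at 10.49 to 11.51 in BMBs, and Mcpt1 was below background on all 10 arrays. Fcer1a, a basophil marker, was at 10.90 to 11.47 in BMBs and higher in mast cells, at 12.24 in Slpi-/- and 12.16 in B6 cells. A pair of features of the arrays touches the results below. The LPS-treated BMEos had Xist signals of 9.66 in Slpi-/- and 9.72 in B6 cells, and Eif2s3y, on the Y chromosome, at 3.54 and 3.22, whereas Xist was at 4.90 or lower and Eif2s3y at 7.62 or higher on the other 8 arrays. The BMEos arrays with and without LPS therefore held cells of different donors. LPS cannot be told apart from the sex of the donor cells or from other differences between donors and cultures. The unstimulated B6 BMB array also carried neutrophil granule RNA, with Mpo at 8.84 and Elane at 7.14, whereas the other 9 arrays had at most 6.43 and 5.73.

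Cish (gene ID 12700, chromosome 9) and Socs3 (gene ID 12702, chromosome 11) are shown with promoter sequence because they were the members with a STAT-type motif near the start. The motif searched was TTCNNNGAA, which reads the same on both strands. RefSeq windows of 250 bases before to 50 bases after each start (GRCm38.p6) were found for 9 of the 10 genes, and Socs2 had none. The stretches below are chr9:107296589-107296688 on the plus strand and chr11:117969457-117969556 on the minus strand, each printed 5′ to 3′ with the motif in capitals.
Cish: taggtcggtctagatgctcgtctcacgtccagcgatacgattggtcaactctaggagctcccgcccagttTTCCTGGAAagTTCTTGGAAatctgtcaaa
Socs3: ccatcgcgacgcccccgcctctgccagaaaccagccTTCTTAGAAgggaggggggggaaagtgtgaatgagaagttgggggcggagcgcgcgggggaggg
In Cish the first match begins at the annotated start and the second begins 11 bases after it. In Socs3 the match begins 154 bases before the start. Of all 32851 windows, 8.3% held at least 1 match and 0.457% held 2 or more. The windows of the other 7 genes held no match. A related motif with 1 more base between TTC and GAA was searched as well. Of the 9 genes 0 had it, where 2164 of all 27025 genes with a window (6.95% of all windows) did. Whether a STAT protein binds these letters was not measured.

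All 10 genes were above background on all 10 arrays. A gene counted as above background where its signal passed that of 95% of the 1027 olfactory receptor genes, a level of 5.56 to 5.78. Socs3 and Pim2 varied most, Socs3 between 7.36 and 9.43 and Pim2 between 8.13 and 11.97. Pim1, between 10.83 and 11.60, varied least. Stat5a was at 9.76 and 9.77 in mast cells and between 8.04 and 8.35 on the other 8 arrays. The members thus included Stat5a, which set mast cells apart, and genes such as Pim2, which differed by both cell type and stimulus. The plot of signals by array shows this.

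**Figure D1:**
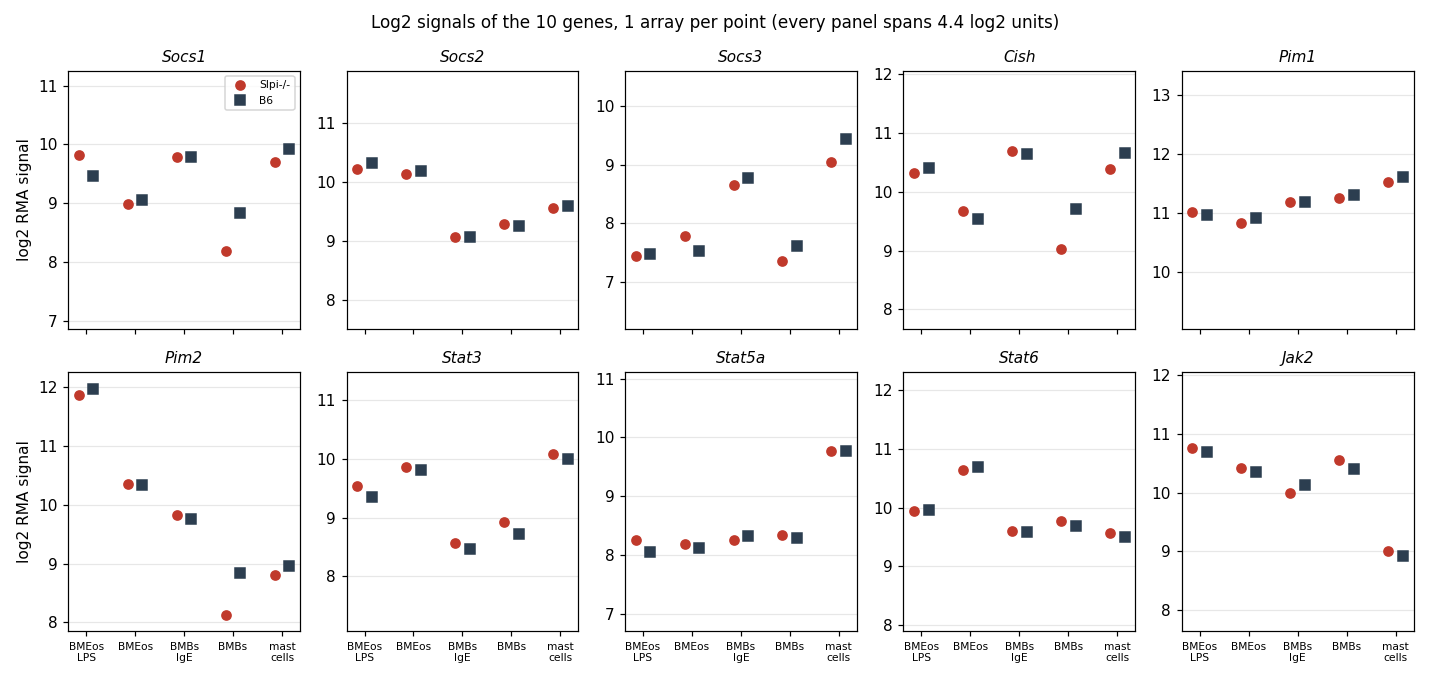
Log2 RMA signal (y axis, every panel 4.4 log2 units high) of each gene in the 5 cell and stimulus settings (x axis), with red circles for Slpi-/- and dark squares for B6, 1 array per point. Pim2 is highest in BMEos with LPS at 11.87 and 11.97, Stat5a is highest in mast cells, and Socs3 is highest in mast cells and in BMBs with IgE.

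With LPS, Pim2, Cish and Socs1 rose in BMEos and Stat6 and Stat3 fell. Thus 3 of the 10 genes rose and 2 fell, where 12.7% of the 13571 genes tested with limma rose and 16.2% fell. The median difference of the 10 genes was 0.12, and that of all genes tested was 0.02. In such bulk arrays, fewer cells of a type and less RNA per cell cannot be told apart.

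Among the inhibitors, Cish, whose product competes with STAT5 for the receptor, had signals of 10.31 in Slpi-/- and 10.40 in B6 BMEos with LPS, against 9.67 and 9.53 without. Both LPS arrays were above both arrays without LPS, and the difference was 0.76 (SE 0.18, 1.69-fold, adjusted p = 0.0228, limma). The Cish difference passed in 12 of 16 limma alternatives, and those it missed each left out 1 BMEos array. It was 0.64 without either B6 BMEos array and 0.87 without either Slpi-/- BMEos array. Socs1 (gene ID 12703, chromosome 16), whose product blocks the JAK catalytic site, was at 9.81 in Slpi-/- and 9.45 in B6 cells with LPS, against 8.99 and 9.06 without. The groups did not overlap, and the difference was 0.61 (SE 0.18, 1.53-fold, adjusted p = 0.0449). It passed in 10 of 16 limma alternatives and rested on the BMEos arrays. Without either Slpi-/- BMEos array the difference was 0.40 (adjusted p = 0.318 and 0.319), and without either B6 BMEos array it was 0.82 (adjusted p = 0.0709 and 0.0751). It also missed the threshold when arrays were centred on their medians (0.53, adjusted p = 0.0762) and with no filter on signal (adjusted p = 0.0677). Socs2 (gene ID 216233, chromosome 10), an inhibitor of growth hormone signalling, was at 10.23 and 10.33 with LPS in Slpi-/- and B6 cells, against 10.13 and 10.20 without (difference 0.11, 95% interval -0.11 to 0.33, adjusted p = 0.390).

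Socs3, the inhibitor that binds the gp130 receptor chain, gave different answers on its 2 probe sets. On the brighter set it had signals of 7.45 in Slpi-/- and 7.48 in B6 BMEos with LPS, against 7.79 and 7.53 without (difference -0.19, SE 0.11, adjusted p = 0.235). On the dimmer set, examined after the values were seen, the signals were 6.79 in both genotypes with LPS, against 6.39 in Slpi-/- and 6.35 in B6 cells without (difference 0.41, SE 0.09, adjusted p = 0.0190). A direction for Socs3 under LPS therefore depends on the probe set.

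Pim2 (gene ID 18715, X chromosome) moved more than any other member under LPS. It had signals of 11.87 in Slpi-/- and 11.97 in B6 BMEos with LPS, against 10.35 and 10.33 without. The groups were far apart, and the difference was 1.58 (SE 0.18, 2.98-fold, adjusted p = 0.00174). Pim2 is X-linked and Xist differed between the same arrays. Of the 370 X-linked genes tested, 12.7% rose and 14.9% fell with LPS, and their median difference was 0.00. This count describes the chromosome as a whole and does not bear on a single gene. The part of donor sex in the Pim2 difference was not tested. Pim1 (gene ID 18712, chromosome 17), the related kinase gene, was at 11.01 and 10.97 with LPS in Slpi-/- and B6 cells, against 10.83 and 10.91 without (difference 0.12, 95% interval -0.11 to 0.35, adjusted p = 0.373).

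Of the signalling genes, Stat6 (gene ID 20852, chromosome 10) was at 9.94 in Slpi-/- and 9.96 in B6 BMEos with LPS, against 10.65 and 10.70 without. Genotypes were nearly equal within each state, and the difference was -0.72 (SE 0.09, 1.65-fold lower, adjusted p = 0.00248). Stat3 (gene ID 20848, chromosome 11) was at 9.54 and 9.35 with LPS in Slpi-/- and B6 cells, against 9.86 and 9.81 without (difference -0.39, SE 0.10, adjusted p = 0.0274). The Stat3 difference passed in 11 of 16 limma alternatives. It missed with no filter on signal and in each fit without 1 BMEos array. Jak2 (gene ID 16452, chromosome 19) was at 10.76 and 10.68 with LPS, against 10.42 and 10.35 without. Its groups did not overlap, yet the difference of 0.34 (SE 0.11) had an adjusted p of 0.0588 and did not pass. It passed in 8 of 16 limma alternatives. Among these were the fit of the 4 BMEos arrays alone (adjusted p = 0.0361) and each fit without 1 BMB array, but no fit without a BMEos array. Stat5a (gene ID 20850, chromosome 11) had a difference of 0.00 (95% interval -0.23 to 0.24). Its sequence is close to that of Stat5b, so its probes could also read that gene, which was not tested. The probe set of Stat5b was at 8.09 in Slpi-/- and 8.26 in B6 cells with LPS, against 9.04 and 8.99 without.

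Pim2 and Stat6 were the members that passed the LPS test whichever of the 4 BMEos arrays was left out, and the count of called members was then 2. Macrophage markers moved with LPS too: 3 of 7 tested rose and 0 fell, where 12.7% of all genes tested rose and 16.2% fell. These were Csf1r and Adgre1, and C1qa, which was above background on the LPS arrays only and was tested through them. The log2 of the summed signal of the list was 12.89 and 12.93 with LPS in Slpi-/- and B6 cells, against 12.43 and 12.40 without. That sum was carried by Adgre1 (12.53 and 12.55 with LPS, 12.09 on both arrays without), which was higher in BMEos than in BMBs or mast cells. Marco was below background on all 4 BMEos arrays. The part of such RNA in the LPS results was not tested.

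The rest of the pathway, taken from lists, also moved in both directions under LPS, where 12.7% of all genes tested rose and 16.2% fell. Of 5 other JAK and STAT genes tested, Stat2 (1.86) and Tyk2 (1.18) rose and Stat5b (-0.84) fell. Of the 5 other SOCS and PIM genes none rose, and Pim3, the remaining PIM kinase gene, fell (-0.78), opposite to Pim2. Of 13 other inhibitors, 4 rose and 1 fell, led by Usp18, which encodes a brake on interferon receptors (4.99, or 31.7-fold). Of 21 JAK-coupled receptor genes, 8 rose and 1 fell, with Il10ra at 1.13 and Ifngr2 at 1.05. Il6, a STAT3-activating cytokine gene, rose. It was at 10.16 in Slpi-/- and 9.94 in B6 cells with LPS, against 4.41 and 4.02 without, which was not above background and leaves the size of the change unknown. Osm, another member of that family, fell by 1.35. Of 13 other STAT target genes, 6 rose and 2 fell, with Bcl3 at 2.68, Ccnd2 at 2.34, Id1 at 1.71 and the survival gene Bcl2l1 at 1.64.

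With IgE and antigen, Cish, Pim2, Socs1 and Socs3 rose in BMBs by similar amounts and Jak2 fell. Thus 4 of the 10 genes rose and 1 fell, where 12.2% of the 13571 genes tested rose and 10.6% fell. The median difference of the 10 genes was -0.07, and that of all genes tested was -0.02.

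Cish was at 10.70 in Slpi-/- and 10.65 in B6 BMBs with IgE, against 9.02 and 9.71 without (difference 1.31, SE 0.18, 2.48-fold, adjusted p = 0.00444, limma). Socs1 was at 9.78 in both genotypes with IgE, against 8.18 in Slpi-/- and 8.84 in B6 cells without (difference 1.27, SE 0.18, 2.41-fold, adjusted p = 0.00491). In both genes the genotypes lay together with IgE and apart without it. Socs3 was at 8.66 and 8.77 with IgE in Slpi-/- and B6 cells, against 7.36 and 7.62 without (difference 1.22, SE 0.11, adjusted p = 0.00152). Its dimmer probe set also rose, by a smaller 0.39 (SE 0.09, adjusted p = 0.0272). Socs2 was at 9.06 and 9.07 with IgE, against 9.30 and 9.25 without, and its difference of -0.21 did not pass (95% interval -0.43 to 0.01, adjusted p = 0.166).

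Pim2 was at 9.84 in Slpi-/- and 9.75 in B6 BMBs with IgE, against 8.13 and 8.85 without. No overlap was seen, and the difference was 1.30 (SE 0.18, 2.47-fold, adjusted p = 0.00489). Pim1 stayed between 11.18 and 11.30 on the 4 BMB arrays (difference -0.10, 95% interval -0.32 to 0.13). Jak2 was at 9.99 in Slpi-/- and 10.12 in B6 cells with IgE, against 10.56 and 10.40 without (difference -0.43, SE 0.11, adjusted p = 0.0337). This call was lost without either Slpi-/- BMB array (difference -0.28, adjusted p = 0.251 without the unstimulated array and 0.250 without the IgE array), and narrowly without any 1 of the BMEos arrays (-0.43, adjusted p = 0.053 to 0.055). Stat3 had a difference of -0.31 (adjusted p = 0.0704), Stat6 of -0.13 (adjusted p = 0.369) and Stat5a of -0.04 (adjusted p = 0.822), none of which passed.

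The sizes of the IgE differences depended on the genotype pair. In Slpi-/- cells they were 1.68 for Cish, 1.70 for Pim2, 1.59 for Socs1 and 1.29 for Socs3, and in B6 cells 0.94, 0.90, 0.94 and 1.15, with 1 array for each value and no test. The B6 pair includes the array with neutrophil granule RNA. Of the neutrophil markers, 0 of 8 passed for IgE. The log2 of their summed signal was 11.39 and 11.48 with IgE in Slpi-/- and B6 cells, against 11.55 and 11.83 without, a sum carried by Cxcr2 (11.25 to 11.42 in BMBs). Their median signal was 5.20 and 5.22 with IgE, against 5.26 and 6.50 without. Mpo was at 5.84 and 5.60 with IgE, against 5.995 and 8.84 without, and the part of this RNA was not tested. Cish, Pim2, Socs1 and Socs3 passed with limma whichever BMB or BMEos array was left out.

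Of the 18 JAK-coupled cytokine genes measured, 6 were above background on at least 1 array and were tested. All 6 rose with IgE, where 12.2% of all genes tested rose and 10.6% fell. Il6 was at 2.49, Il13 at 2.35, Lif at 1.77 and Osm at 1.24, and Csf2 was tested through 1 IgE array alone. Pim3 rose by 0.84, and the other 4 SOCS and PIM genes did not pass. Of 5 other JAK and STAT genes, Stat5b (-0.58) and Stat4 (-0.44) fell and none rose. Of 13 other inhibitors 4 fell, among them Ptprc (-0.66) and Cblb (-0.58). Of 21 receptor genes 1 rose and 4 fell, with Il4ra at 0.46, Il7r at -1.03 and Il3ra, the IL-3 receptor alpha chain, at -0.45. Of 13 other STAT target genes 2 rose and 3 fell, including Myc at 1.49.

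**Figure D2:**
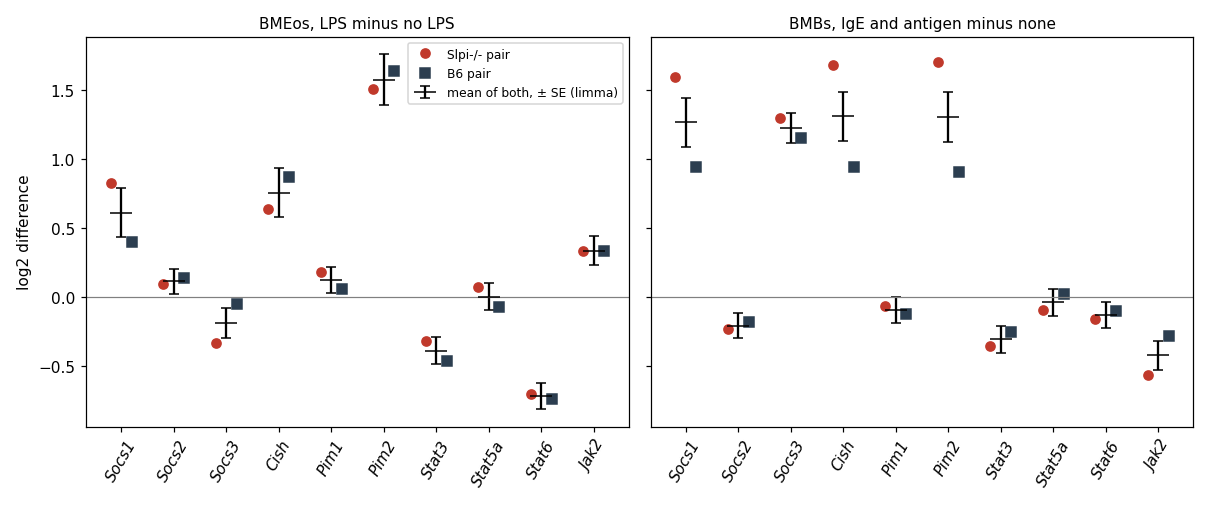
Log2 difference with LPS in BMEos (left) and with IgE and antigen in BMBs (right) for each gene (x axis), with red circles for the Slpi-/- pair of arrays, dark squares for the B6 pair and black marks for the limma mean ± SE. Cish, Pim2 and Socs1 lie above 0 in both panels, Socs3 (brighter probe set) is at 1.22 with IgE and -0.19 with LPS, and Stat6 is at -0.72 with LPS.

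The LPS and IgE responses were set against each other in the same fit. The cells, the agents and the times differ together, and the LPS side also holds the change of donors and their sex. This therefore compares experiments. Here 1 of the 10 genes was higher (Jak2) and 2 were lower (Socs3 and Stat6), where 9.71% of the genes tested were higher and 13.3% lower. Socs3 differed by -1.42 (SE 0.16, adjusted p = 0.00213) on its brighter probe set, yet by 0.02 (SE 0.13, adjusted p = 0.911) on the dimmer set. Jak2 differed by 0.76 (SE 0.15, adjusted p = 0.0160) and Stat6 by -0.59 (SE 0.13, adjusted p = 0.0225). The differences for Socs1 (-0.66, adjusted p = 0.108), Cish (-0.56, adjusted p = 0.156) and Pim2 (0.27, 95% interval -0.35 to 0.89) did not pass. Only Socs3 was called without any 1 of 6 arrays, namely the 4 BMEos arrays and the 2 Slpi-/- BMB arrays. Without either B6 BMB array Stat6 did not pass (-0.56, adjusted p = 0.063 and 0.064), and Socs1 (-0.98) and Cish (-0.93) were called lower with adjusted p-values of 0.0264 to 0.0406. Among the other genes, Pim3 (-1.62) and Osm (-2.60) were lower and Stat2 (1.81) and Tyk2 (1.24) higher.

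In unstimulated cells, mast cells had the highest Cish, Pim1, Socs1, Socs3, Stat3 and Stat5a and the lowest Jak2 and Stat6. Not every such difference passed. Against mast cells, BMEos had 4 of the 10 genes higher and 5 lower, where 24.3% of the 12998 genes tested were higher and 26.8% lower. BMBs had 1 higher and 6 lower, where 18.8% of genes were higher and 17.9% lower. Both comparisons use the same mast cell arrays. The median difference of the 10 genes was -0.45 for BMEos and -0.78 for BMBs, against -0.04 and -0.01 for all genes tested.

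Socs3 was at 7.79 in Slpi-/- and 7.53 in B6 BMEos and at 7.36 and 7.62 in BMBs, against 9.04 and 9.43 in mast cells. Both differences passed (-1.58, SE 0.16, adjusted p = 0.000207 for BMEos, and -1.75, SE 0.16, adjusted p = 0.000213 for BMBs), and the dimmer probe set was lower too (-0.90 and -0.70). Socs1 was at 9.71 in Slpi-/- and 9.92 in B6 mast cells, and its difference was -0.79 (adjusted p = 0.00402) for BMEos and -1.30 (adjusted p = 0.000611) for BMBs. Cish was at 10.40 and 10.66 in mast cells, with differences of -0.92 (adjusted p = 0.00528) and -1.16 (adjusted p = 0.00288). All 4 unstimulated BMEos and BMB arrays lay below both mast cell arrays for Socs1, Socs3 and Cish, and also for Pim1, Stat3 and Stat5a. The share of all genes with such a separation was not counted. Socs2 ran differently, since it was higher in BMEos than in mast cells (0.59, SE 0.10, adjusted p = 0.00197). In BMBs it was lower (-0.30, adjusted p = 0.0447), a call that was lost without any 1 of the 6 unstimulated arrays and on the dimmer probe set (-0.16, adjusted p = 0.276).

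Jak2 was at 10.42 in Slpi-/- and 10.35 in B6 BMEos and at 10.56 and 10.40 in BMBs, against 9.01 and 8.93 in mast cells. The differences were 1.42 (SE 0.10, 2.68-fold, adjusted p = 2.48e-05) for BMEos and 1.52 (SE 0.10, 2.86-fold, adjusted p = 3.4e-05) for BMBs. Stat5a ran the opposite way, with differences of -1.62 (3.07-fold lower, adjusted p = 1.28e-05) and -1.44 (2.72-fold lower, adjusted p = 3.98e-05). Mast cells thus had more Stat5a RNA and less Jak2 RNA than either other cell type. Stat3 was lower in BMBs (-1.21, adjusted p = 0.000116), whereas the BMEos difference did not pass (-0.20, 95% interval -0.43 to 0.04).

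The PIM genes split. Pim1 was at 10.83 in Slpi-/- and 10.91 in B6 BMEos, against 11.53 and 11.60 in mast cells (difference -0.70, SE 0.09, adjusted p = 0.000774). Its difference in BMBs was -0.29 and missed the threshold (adjusted p = 0.0511), though it passed in 6 of 14 limma alternatives. Pim2, in contrast, was higher in BMEos than in mast cells, where it was at 8.81 in Slpi-/- and 8.97 in B6 cells (difference 1.46, SE 0.17, adjusted p = 0.000454), and it did not pass in BMBs (-0.40, 95% interval -0.81 to 0.02). Without the unstimulated B6 BMB array, Pim2 was called lower in BMBs (-0.72, adjusted p = 0.00788). Stat6 was higher in BMEos than in mast cells (1.13, SE 0.10, adjusted p = 8.3e-05) and did not pass in BMBs (0.20, adjusted p = 0.166).

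Between BMEos and BMBs, 5 of the 10 genes were higher in BMEos and 1 was lower, where 18.6% of genes were higher and 21.2% lower. Pim2 differed by 1.85 (SE 0.17, 3.61-fold), Stat3 by 1.01 (SE 0.10), Stat6 by 0.94 (SE 0.10), Socs2 by 0.89 (SE 0.10) and Socs1 by 0.51 (SE 0.15), and Pim1 by -0.41 (SE 0.09). The first 4 had adjusted p-values of 0.000238 to 0.000422, whereas Socs1 (0.0331) and Pim1 (0.0121) lay closer to the threshold. Socs1 was no longer called without the unstimulated Slpi-/- BMB array (0.25, adjusted p = 0.203) or the unstimulated Slpi-/- BMEos array (0.33, adjusted p = 0.255). Pim1 was no longer called without that BMB array (adjusted p = 0.0548), without that BMEos array (adjusted p = 0.0919) or without the unstimulated B6 BMEos array (adjusted p = 0.0796). Cish, at 0.24 (adjusted p = 0.366), was called without the unstimulated B6 BMB array (0.55, adjusted p = 0.0404). Jak2 (-0.10), Stat5a (-0.18) and Socs3 (0.17) did not pass.

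**Figure D3:**
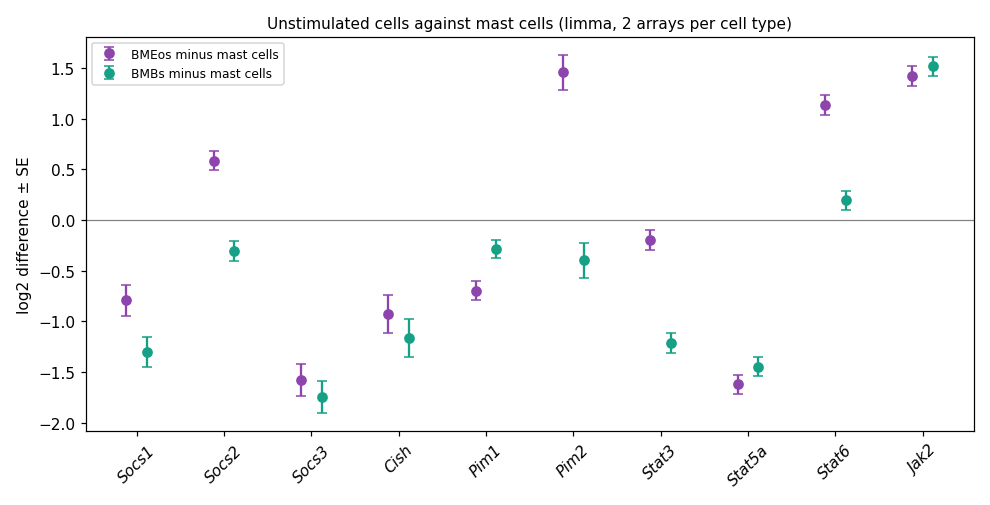
Log2 difference from mast cells (y axis, limma mean ± SE) for each gene (x axis) in unstimulated BMEos (purple) and BMBs (green), 2 arrays per cell type. Jak2 is near 1.5 above mast cells in both, Stat5a and Socs3 are more than 1.4 below, and Pim2 and Stat6 are above mast cells in BMEos at 1.46 and 1.13.

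The receptors that feed this pathway differed between the same cells. Csf2rb, the shared beta chain of the IL-3, IL-5 and GM-CSF receptors, was at 12.62 or higher on all 10 arrays, although its near-identical paralog Csf2rb2 could share its probes. Il5ra was at 8.41 to 8.91 in BMEos and at 4.61 or lower elsewhere. Il3ra was at 7.38 to 7.64 in BMEos, 9.01 to 9.60 in BMBs, and 8.70 and 8.89 in mast cells. Of 21 receptor genes tested against mast cells, 9 were higher and 8 lower in BMEos, where 24.3% of all genes were higher and 26.8% lower. In BMBs 13 were higher and 4 lower, where 18.8% of all genes were higher and 17.9% lower. Among the other STAT genes, Stat4 was lower in BMEos than in mast cells (-3.69). Neutrophil markers were above background for 7 and 6 of 8 genes in unstimulated BMEos and for 3 and 6 of 8 in unstimulated BMBs, against 1 and 0 of 8 in mast cells (Slpi-/- and B6 each time). The log2 of their summed signal was 11.40 and 11.77 in BMEos and 11.55 and 11.83 in BMBs, against 8.12 and 8.24 in mast cells. That sum was carried by Cxcr2 in BMBs and by Ngp and Cxcr2 in BMEos, and the median signal was 6.25 on both BMEos arrays and 5.26 and 6.50 in BMBs, against 5.20 and 5.22 in mast cells. Higher than in mast cells were 4 of 8 neutrophil markers in BMEos and 1 of 8 in BMBs, 4 of 5 and 5 of 5 macrophage markers tested, 3 of 5 and 4 of 5 dendritic cell markers, and 2 of 3 erythroid and megakaryocyte markers in both. Of the last list 1 was lower in both, and none of the others was lower. These counts stand beside the same shares of all genes as the receptor counts. The log2 of the summed macrophage markers was 12.43 and 12.40 in BMEos and 11.40 and 11.84 in BMBs, against 8.48 and 8.52 in mast cells. Most of that sum in BMEos and BMBs came from Adgre1. It was at 12.09 on both BMEos arrays and at 10.82 and 11.33 in BMBs, against 4.01 and 4.80 in mast cells. The part of such RNA in these differences was not tested.

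None of the 10 genes passed the limma test for loss of Slpi. In BMEos 0 of 10 were called, where 0.00737% of genes were called, and in BMBs 0 of 10 were called, also against 0.00737%. The difference between the 2 cell types (0.00737% of genes) and the comparison over all 5 settings (0% of genes) likewise called none of them. At an unadjusted p under 0.05 stood 785 genes in BMEos and 917 in BMBs, but none of the 10. Over the 5 settings it was 722 genes, with Stat3 among them (0.13 higher in Slpi-/-, 95% interval 0.00 to 0.26, adjusted p = 0.914, higher in 5 of 5 pairs). The widest 95% interval over the 5 settings was that of Socs1, from -0.40 to 0.17. The intervals in BMBs alone reached further, with -0.757 to 0.099 for Socs1, -0.749 to 0.105 for Cish and -0.756 to 0.123 for Pim2. That fit averages BMBs with and without IgE. No gene of the other pathway lists passed either.

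Single pairs of arrays differed most in unstimulated BMBs. There, Cish was at 9.02 in Slpi-/- and 9.71 in B6 cells, Socs1 at 8.18 and 8.84, and Pim2 at 8.13 and 8.85. These were the 3 genes of the 10 that lay at least 1.5-fold lower in Slpi-/- BMBs, where 1.91% of 12262 genes did, with differences of -0.69 for Cish, -0.65 for Socs1 and -0.71 for Pim2. With IgE the same genes differed by 0.05, -0.00 and 0.08, and 0 of the 10 reached 1.5-fold in either direction (1.55% of genes higher, 1.00% lower). None was 1.5-fold higher without IgE, where 1.06% of genes were. With 1 array per condition these differences have no replicate check. The B6 array of that pair is the one with neutrophil granule RNA. Mpo was at 5.995 in Slpi-/- and 8.84 in B6 cells and Elane at 5.47 and 7.14, and the median of the 8 neutrophil markers was 5.26 and 6.50, whereas their sum (11.55 and 11.83 as log2) was carried by Cxcr2. The log2 of the summed dendritic cell markers was 10.25 in Slpi-/- and 9.50 in B6 cells, with Xcr1 below background on all 10 arrays. The part of either cell type in these differences was not tested. In BMEos the genotype differences of the 10 genes lay between -0.08 and 0.26 without LPS and between -0.11 and 0.36 with it, and in mast cells between -0.39 (Socs3) and 0.08. None of the 10 reached 1.5-fold in those pairs, where 0.344% of genes were higher and 0.386% lower in BMEos without LPS, 0.803% and 0.618% with LPS, and 0.422% and 0.523% in mast cells.

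**Figure D4:**
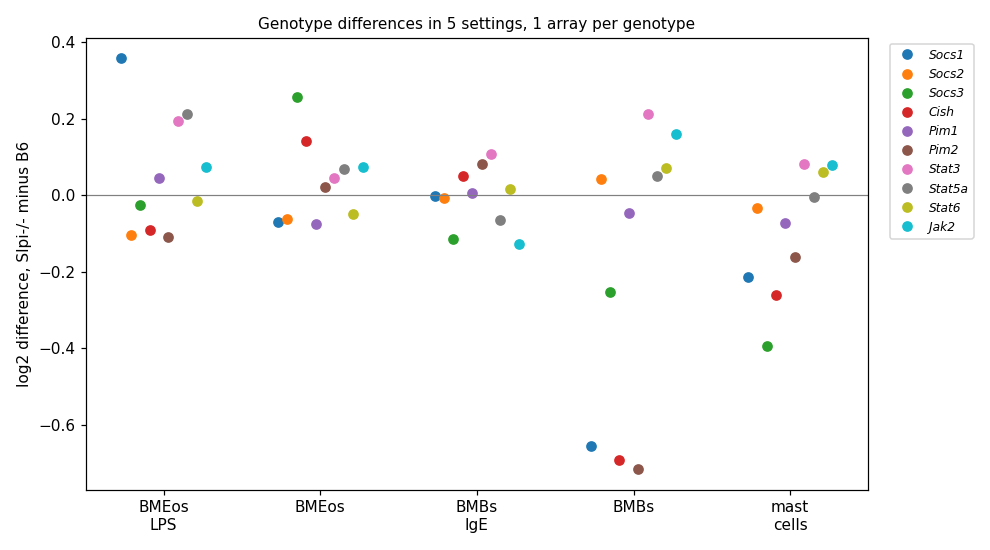
Log2 difference between Slpi-/- and B6 arrays (y axis) for the 10 genes (colours) in 5 cell and stimulus settings (x axis), 1 array per genotype. Cish, Socs1 and Pim2 lie between -0.65 and -0.71 in unstimulated BMBs and between -0.00 and 0.08 in BMBs with IgE.

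The genes whose pattern over the 10 arrays was most like that of Socs3 and Pim2, the members with a range of at least 2, were sought among 13570 other genes, as a description with no test. The arrays share cell types and stimuli, so they are not independent points. For Socs3 they were Dhdds (Pearson r 0.98), the phosphatase gene Dusp4 (0.98) and Adamtsl4 (0.97). Of these, Dusp4 ranged from 4.99 to 8.45, while Dhdds moved only between 7.24 and 7.78. For Pim2 they were Ciapin1 (0.98), Mapre1 (0.98) and Larp4b (0.97), each with a range of under 2 on the log2 scale.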

How the data were processed

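The authors normalized the arrays with the RMA algorithm of affy and deposited 10 columns of log2 signal, used here as deposited. Of 34760 probe sets, 21640 carried 1 gene symbol in the platform annotation, 21553 of them matched to RefSeq (GRCm38.p6), and those with several symbols or none were left out. The array medians were 5.85 to 5.94, and 55.6% to 60.4% of named genes were above background on an array. The number of arrays limits the precision.

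Differences were tested with limma 3.58.1 (R 4.3.3; lmFit, eBayes, Benjamini-Hochberg over all genes tested, threshold 0.05). The fit for LPS, IgE and the genotype within cell types held all 10 arrays, with 1 mean per cell type and genotype and terms for IgE and LPS (2 residual and 4.48 prior degrees of freedom). The fit over 5 settings had a block for each setting (4 residual degrees of freedom). The fit of unstimulated cells held 6 arrays (2 residual degrees of freedom). Genes above background on at least 1 array were tested. The step was tested on simulated data.

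The members and gene lists were chosen with earlier results of these data known. Named were all 10 members, up to 4 genes of a list that passed, by size, up to 2 that did not, and the 3 genes most like each member with a range of at least 2. Marker genes were named from their lists. Alternatives were quantile normalization, centring, no filter, averaged probe sets, the 99th percentile as background, a variance trend, the methods' t-test, other sets of arrays, no genotype term and each array left out. The dimmer probe sets of Socs2 and Socs3 were added after seeing the data. Some listed genes are not reported here. Python 3.11.15, pandas 2.3.3 and matplotlib 3.10.9 made the tables and figures.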

Additional observations from a re-analysis of the deposited data

Results flagged for a closer look

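Stat6 was flagged because its genotype difference ran opposite ways in the 2 cell types. It was -0.05 without LPS and -0.01 with LPS in BMEos, and 0.07 without IgE and 0.02 with IgE in BMBs (Slpi-/- minus B6, 1 array each). The difference between the cell types was -0.076 (SE 0.13, limma adjusted p = 0.955) and did not pass.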

How the results depend on the processing

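With no filter on signal, 3 members were called for LPS, against 5 with the filter. The shares of all genes called under each alternative are not given. The counts in this section therefore describe the settings and are no result about the members. The methods' t-test, which has 1 degree of freedom on 2 pairs, called 0 members for LPS, for IgE and in the 3 comparisons of cell types, where limma called 5, 5, 7 (BMBs against mast cells), 9 (BMEos against mast cells) and 6 (BMEos against BMBs). Leaving out 1 array gave 2 to 6 members for LPS, 4 to 5 for IgE, 1 to 4 for the LPS response minus the IgE response (3 with all arrays), 6 to 7 for BMBs and 9 for BMEos against mast cells, and 4 to 7 for BMEos against BMBs. It gave 0 for every genotype comparison. On the dimmer probe set, chosen after seeing the data, Socs3 changed sign for LPS (0.414, against -0.192) and for the LPS response minus the IgE response (0.024, against -1.416); the cause was not tested. Of the other single-gene values, 43 calls were lost and 10 gained when an array was left out, 12 were lost and 14 gained under the other limma alternatives, and 32 were lost by the methods' t-test, all with their direction kept. The genotypes served as pairs in the LPS and IgE comparisons, although the arrays with and without LPS held cells of different donors. With no genotype term, 6 members were called for LPS.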
